A study of Mus musculus with 6 samples.

Results

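The miRNAs of the Dlk1-Dio3 imprinted region were examined in epididymal white adipose tissue (WAT) of wild type (Wt) and angiotensinogen transgenic (Agt Tg) mice. They were chosen by the number in the row name, from a list of miRNA numbers of this region, and then by level, as rows above the lowest value the table can hold in at least 1 library. Of 1983 rows in the table, 80 carried a number of the region, and 29 of these, with 22 different numbers, were above that lowest value somewhere. All mice were C57BL6/J males, 3 Wt and 3 Agt Tg, and their ages are not in the labels. The labels give the genotype only as WT or Agt Tg. Per the study's text, angiotensinogen was overexpressed in adipose tissue of Agt Tg mice from the aP2 promoter, which is active in adipocytes and also in macrophages. The labels give a chow diet for both genotypes, whereas the methods give a low fat diet. Each numbered title was taken as 1 mouse and 1 small RNA library. The sources do not say that animals were unpooled, so the p-values measure only the spread between these libraries.

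In mammals the Dlk1-Dio3 domain is imprinted, meaning that each of its genes is read from the chromosome of only 1 parent. The paternal chromosome expresses the coding genes Dlk1, Rtl1 and Dio3. DLK1, also called PREF-1, holds back the conversion of preadipocytes to adipocytes, and DIO3 inactivates thyroid hormone. The maternal chromosome expresses the long noncoding RNAs Meg3, Rian and Mirg, together with small nucleolar RNAs and one of the largest groups of miRNA genes known in mammals. These miRNAs are best known from brain, placenta and muscle, and their levels usually follow each other because they are cut from shared primary transcripts.

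On chromosome 12 of the mouse genome (GRCm38.p6, RefSeq), Meg3 lies from 109540996 to 109571729, Rian from 109603945 to 109661716, Mirg from 109734981 to 109749458 and Dio3 from 110279230 to 110281097. All 29 rows had a mouse miRNA gene of the same number there. From the start of Meg3 to the end of Mirg, 60 mouse miRNA genes had a mature sequence. Of these, 16 had a number outside the list and were not examined. The 29 rows formed 2 stretches. The first held 6 rows from 4 genes (Mir431, Mir433, Mir127 and Mir136) within 4.94 kb, each gene inside an exon of Rtl1 and on the strand opposite to it (GENCODE M21). A miRNA made from that strand is fully complementary to the Rtl1 transcript. The second stretch began 113.7 kb further on and held 23 rows within 34.7 kb, from Mir379 to Mir410. Its genes up to Mir487b lay between the annotated noncoding genes, and those from Mir382 onwards lay in exons or introns of Mirg, on the same strand, as GENCODE M21 draws that gene. RefSeq starts Mirg further downstream, after Mir134, Mir668 and Mir485.

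Row names in the table carry the human prefix although the libraries are from mouse. RefSeq gave a mouse mature sequence of the same number and arm for 21 of the 29 rows, while 7 rows name no arm. The human sequences were not used here, and whether the mouse sequences are identical to them was not tested. The sequences shown are those of the most abundant row, of the rows with the clearest differences, and of precursors seen with both arms. None is printed for miR-134, whose row names no arm, or for miR-485-5p. Capitals mark the seed, bases 2 to 8 from the 5′ end, through which a miRNA mainly pairs with its targets.
miR-127-3p: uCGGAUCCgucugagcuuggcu
miR-127-5p: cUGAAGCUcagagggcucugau
miR-136-5p: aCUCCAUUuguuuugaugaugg
miR-136-3p: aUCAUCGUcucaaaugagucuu
miR-379-5p: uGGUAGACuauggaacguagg
miR-379-3p: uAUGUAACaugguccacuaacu
miR-411-5p: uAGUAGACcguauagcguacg
miR-411-3p: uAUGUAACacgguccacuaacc
miR-381-3p: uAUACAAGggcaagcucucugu
miR-409-5p: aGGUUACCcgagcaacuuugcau
miR-409-3p: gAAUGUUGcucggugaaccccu
miR-485-3p: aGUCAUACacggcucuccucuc

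Among the 21 matched rows there were 20 different seeds. The shared seed was that of miR-379-3p and miR-411-3p, whose genes are neighbours and whose sequences were the same at 20 of 22 positions, with the substitutions U10C and U22C (miR-379 base first, counted from the 5′ end). Their 5p arms were the same at 14 of 21 positions, and with the substitution G2A inside the seed they do not share it. miR-379-5p shares its seed with miR-1193-5p, a further miRNA of the region whose row was at the lowest value in every library.

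Levels are the deposited values, which are log2 reads scaled to a library total of 10000000. Values under 10 had been raised to 10, so the lowest value, called the floor here, is 3.32. The totals recovered from the values ran from 6387766 reads (Agt Tg 2) to 10562634 reads (Agt Tg 3), and the floor was worth 6.39 to 10.6 reads. Differences below the floor were not detectable at this depth. The library Wt 2 stood apart before any comparison of these miRNAs. In it the summed level of 3 epididymis and testis markers reached 16.4, compared with 9.78 to 10.5 in the Agt Tg libraries, and that of 9 epithelial markers reached 15.7, compared with 8.78 to 9.38. The comparison of genotypes and the pattern over libraries are therefore also given without it. The 6 adipocyte markers summed to between 19.0 and 19.1 in Wt and between 19.1 and 19.5 in Agt Tg libraries, with miR-193b-3p at the floor throughout.

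miR-127-3p, which guides cleavage of the Rtl1 transcript, was the most abundant of the 29. Its level was 14.80, 14.03 and 14.67 in Wt 1, 2 and 3, and 14.72, 13.86 and 13.68 in Agt Tg 1, 2 and 3. It alone took between 71.9% and 80.1% of the reads on the 29 rows. miR-411-5p came second, with 12.30, 11.95 and 11.68 in Wt and 11.97, 10.86 and 11.11 in Agt Tg libraries, and took between 10% and 17%. The other 27 rows together held between 9.46% and 11.1% of those reads. miR-127-3p was first and miR-411-5p second in every library.

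Next in level were miR-410 (8.25 to 9.78 over the 6 libraries), miR-409-3p (7.79 to 9.70), miR-136-3p (7.76 to 8.79), miR-431-5p (7.06 to 8.62), miR-381-3p (6.88 to 8.47) and miR-136-5p (6.60 to 8.18). At the other end, 51 of the 80 rows were at the floor in every library, among them miR-370, miR-494, miR-495 and miR-300. The rows carry human names, and whether the floor in them meant few reads of the mouse miRNA was not tested. Of the 29, 18 were above the floor in all 6 libraries, 25 in at least 3, and 4 in only 1 or 2. These 4 were miR-299-5p (16 reads in Wt 1 and 12 in Agt Tg 1), miR-377-3p (15 reads in Wt 2), miR-487b (12 reads in Wt 3) and miR-377-5p (8 reads in Wt 1, log2 level 3.42). The last was the closest to the floor of those counted, and every row left out was at 3.32 throughout. The plot of levels by library shows the 25 rows that were tested.

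**Figure D1:**
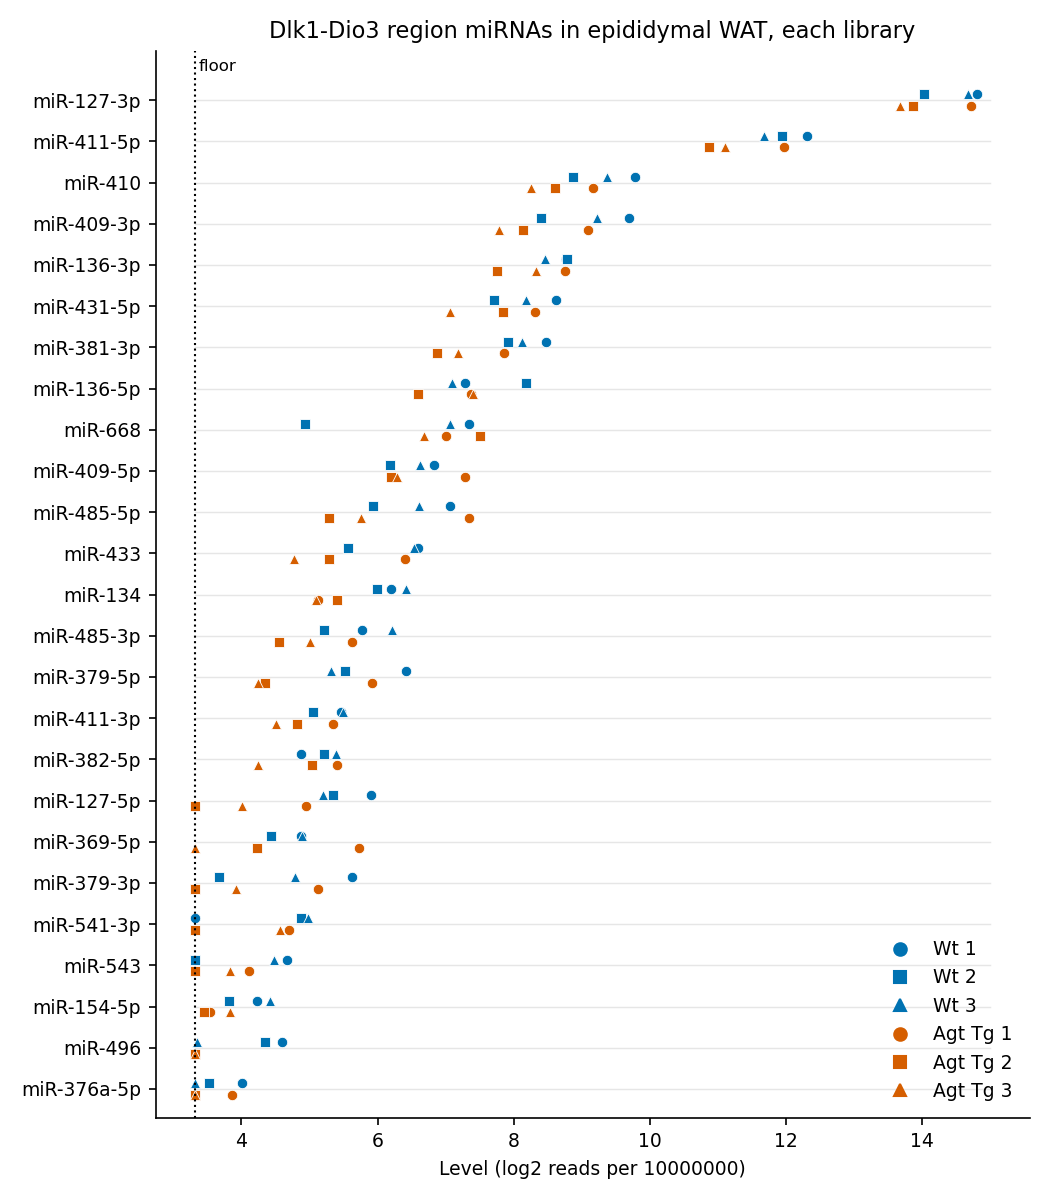
Level of 25 Dlk1-Dio3 region miRNAs in each of 6 libraries (x axis, log2 reads per 10000000; y axis, miRNAs by mean level; blue Wt, orange Agt Tg; circle, square and triangle are replicates 1, 2 and 3; the dotted line is the floor at 3.32). miR-127-3p lies near 14 and miR-411-5p near 11 to 12, and orange squares and triangles are the leftmost symbols in most rows.

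Together the 29 rows took 0.697%, 0.422% and 0.570% of the reads on listed miRNAs in Wt 1, 2 and 3, and 0.639%, 0.360% and 0.311% in Agt Tg 1, 2 and 3. Agt Tg 1 lay among the Wt libraries, Agt Tg 2 and 3 below all of them, and so the genotypes overlapped. The means were 0.563% ± 0.138 in Wt and 0.437% ± 0.177 in Agt Tg (SD, n = 3), a ratio of 0.776, and the difference was smaller than the spread between replicates. Without Wt 2 the ratio was 0.690, and without Agt Tg 1 it was 0.596. Without miR-127-3p the share was 0.134% ± 0.0308 in Wt and 0.0932% ± 0.0366 in Agt Tg (SD, n = 3), again with overlap. In bulk tissue, fewer cells of a type and less of an RNA per cell cannot be told apart.

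The 25 rows were compared between genotypes in a limma fit made together with the other 304 rows of the table that cleared the same filter, a level above the floor in 3 or more libraries. In Agt Tg libraries 23 of the 25 had a lower mean than in Wt, compared with 67.5% of all rows tested. The median log2 fold change (Agt Tg minus Wt) over the 25 was −0.45, compared with −0.19 over all tested rows. When libraries were scaled by TMM, which moved the median of all rows to −0.06, the median of the 25 was −0.32 and 22 of them were lower, compared with 55.3% of all. Without Wt 2, 24 of the 25 were lower, compared with 65.7% of all, with medians of −0.68 and −0.18. By position, the median was −0.42 over the 6 rows opposite Rtl1, all of them lower, and −0.55 over the 19 rows of the second stretch, 17 of them lower. These counts and medians include miR-496, which was above the floor in the 3 Wt libraries alone. The filter therefore fixed its direction as lower, as it did for 2 of all tested rows. The 29 were picked with earlier results of these data known, so no test was made over the list.

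With the threshold of an unadjusted p of at most 0.05, 3 of the 25 (12%) were lower in Agt Tg libraries, compared with 4.56% of all tested rows. At the same threshold 0 of the 25 were higher, compared with 4.56% of all. The 3 lower rows were miR-134, miR-127-5p and miR-381-3p. With a log2 fold change of at most −1 in addition, 2 of the 25 (8%) remained, compared with 2.13% of all. With Benjamini-Hochberg adjustment over all tested rows, limma called 0 of the 25 and 0 of all tested rows. The lowest adjusted p by limma was 0.382 in both. Likewise limma-voom called 0 of the 25, against the 3 without adjustment. In 4 of the 25 (16%) the 3 Agt Tg libraries lay below the 3 Wt libraries without overlap, compared with 10.6% of all tested rows. In 0 of the 25 they lay above without overlap, compared with 6.99% of all. One of the 4, miR-496, was above the floor in the 3 Wt libraries alone, so the filter itself fixed its separation, as it did for 2 of all tested rows. Counts over all tested rows moved with those of the 25 when a library was left out. Leaving out Wt 2 gave 7 of the 25 lower at the p threshold, compared with 9.12% of all, 3 with the fold change in addition (3.34% of all) and 11 without overlap (26.4% of all). Leaving out Agt Tg 1 gave 9 lower at the p threshold (11.9% of all), 5 with the fold change (7.6%) and 15 without overlap (27.1%). Leaving out Wt 1, Agt Tg 2 or Agt Tg 3 gave 1 of the 25 at the p threshold, compared with 2.43%, 2.74% and 1.82% of all.

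miR-134, known from neurons as a regulator of dendritic spine size, has its gene at 109734139 to 109734209 on chromosome 12, inside an exon of Mirg in GENCODE M21. Its level was 6.20, 6.0 and 6.42 in Wt 1, 2 and 3, from 55, 50 and 84 reads. In Agt Tg 1, 2 and 3 it was 5.12, 5.40 and 5.09, from 36, 27 and 36 reads. All 3 Agt Tg libraries, Agt Tg 1 included, were below all Wt libraries. The log2 fold change was −1.0 (standard error, SE, 0.28, limma unadjusted p = 0.00905, adjusted p = 0.382), that is 2.0-fold lower. Its unadjusted p stayed at most 0.05 under all 14 alternatives tried, each library left out included, while its fold change was smaller than 2-fold under 6 of them.

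miR-127-5p, the less abundant arm of the miR-127 precursor (chromosome 12, 109592846 to 109592915), was at 5.91, 5.35 and 5.20 in Wt 1, 2 and 3, from 45, 32 and 36 reads. In Agt Tg 1 it was at 4.95 (32 reads), in Agt Tg 3 at 4.01 (17 reads), and in Agt Tg 2 at the floor. The groups did not overlap. The log2 fold change was −1.39 (SE 0.47, limma unadjusted p = 0.0197, adjusted p = 0.382). The Agt Tg 2 value had been raised to the floor, so with the value before raising the measured difference could only be as large or larger. With Agt Tg 2 left out, the log2 fold change was smaller, −1.01. Given the standard error, −1.39 is no bound on the true difference. Its partner miR-127-3p, with 9528 to 27887 reads, had a log2 fold change of −0.42 (SE 0.33, adjusted p by limma = 0.616), and its groups overlapped. Left out in turn, Wt 1, Agt Tg 2 and Agt Tg 3 each took miR-127-5p past an unadjusted p of 0.05 (0.0674, 0.0601 and 0.054).

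miR-381-3p comes from between Rian and Mirg (chromosome 12, 109726822 to 109726896) and had the most reads of the 3. It was at 8.47, 7.92 and 8.12 in Wt 1, 2 and 3, from 265, 190 and 273 reads. In Agt Tg 1, 2 and 3 it was at 7.86, 6.88 and 7.19, with 241 reads in the first and 75 in the second. The groups did not overlap, but Agt Tg 1 lay only just below Wt 2. The log2 fold change was −0.86 (SE 0.34, limma unadjusted p = 0.0384, adjusted p = 0.507), or 1.82-fold lower. With Wt 1, Wt 3, Agt Tg 2 or Agt Tg 3 left out in turn its unadjusted p by limma was 0.133, 0.0805, 0.134 and 0.0982, and its log2 fold change lay between −1.14 and −0.65 over all 6 such fits.

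The fourth row without overlap was miR-496, from an intron of Mirg. It had 18, 16 and 10 reads in Wt 1, 2 and 3 and was at the floor in all 3 Agt Tg libraries. In Wt 3 its level was 3.35, barely above the floor of 3.32, so the separation of the groups rests on a value next to the limit of detection. It passed the filter only through the Wt libraries, and no test of it is given.

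Of the remaining miRNAs opposite Rtl1, miR-433 was at 6.59, 5.56 and 6.53 in Wt and 6.41, 5.29 and 4.78 in Agt Tg libraries, with a log2 fold change of −0.74 (SE 0.51, adjusted p by limma = 0.587). miR-431-5p was at 8.62, 7.71 and 8.19 in Wt and 8.31, 7.85 and 7.06 in Agt Tg libraries (−0.43, SE 0.41, adjusted p by limma = 0.671). In both, Agt Tg 1 was above Wt 2, so the groups overlapped, and neither passed the unadjusted threshold. The arms of miR-136, which like miR-127 pairs with the Rtl1 transcript, had almost the same log2 fold change, −0.39, with standard errors of 0.32 (3p) and 0.40 (5p). miR-136-3p was at 8.78, 8.79 and 8.46 in Wt and 8.76, 7.76 and 8.33 in Agt Tg libraries. miR-136-5p was at 7.29, 8.18 and 7.09 in Wt and 7.37, 6.60 and 7.40 in Agt Tg libraries. Only the 5p strand was clearly highest in Wt 2, and Agt Tg 2 was the lowest library for both.

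In the second stretch, miR-411-5p had a log2 fold change of −0.66 (SE 0.33, adjusted p by limma = 0.531). miR-379-5p, from the first gene of this stretch, was at 6.42, 5.52 and 5.31 in Wt and 5.93, 4.35 and 4.24 in Agt Tg libraries (−0.91, SE 0.54, adjusted p by limma = 0.553). Agt Tg 2 and 3 had 13 and 20 reads of it, and Agt Tg 1 had 63, close to the 64 of Wt 1. miR-410, from the last gene, was at 9.78, 8.87 and 9.37 in Wt and 9.16, 8.61 and 8.25 in Agt Tg libraries (−0.67, SE 0.35, adjusted p by limma = 0.531). In these 3 rows Agt Tg 2 and 3 lay below all Wt libraries and Agt Tg 1 lay within their range. The rows at lower levels, miR-376a-5p, miR-154-5p, miR-369-5p, miR-379-3p, miR-382-5p, miR-411-3p, miR-541-3p and miR-543, had log2 fold changes from −0.57 to −0.12, those of miR-485 were −0.67 (3p) and −0.41 (5p), and none passed the unadjusted threshold.

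The rows that were not lower were miR-668 and miR-409-5p. miR-668, whose gene lies 0.59 kb downstream of Mir134, was at 7.34, 4.94 and 7.07 in Wt 1, 2 and 3 and at 7.0, 7.50 and 6.68 in Agt Tg 1, 2 and 3. It was far lower in Wt 2 (24 reads) than in the other 5 libraries (108 reads or more), and it was highest in Agt Tg 2, where most other rows were low. Its log2 fold change was 0.61 (SE 0.65, adjusted p by limma = 0.694), and without Wt 2 it was −0.14. The plot along the region sets it beside miR-134.

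**Figure D2:**
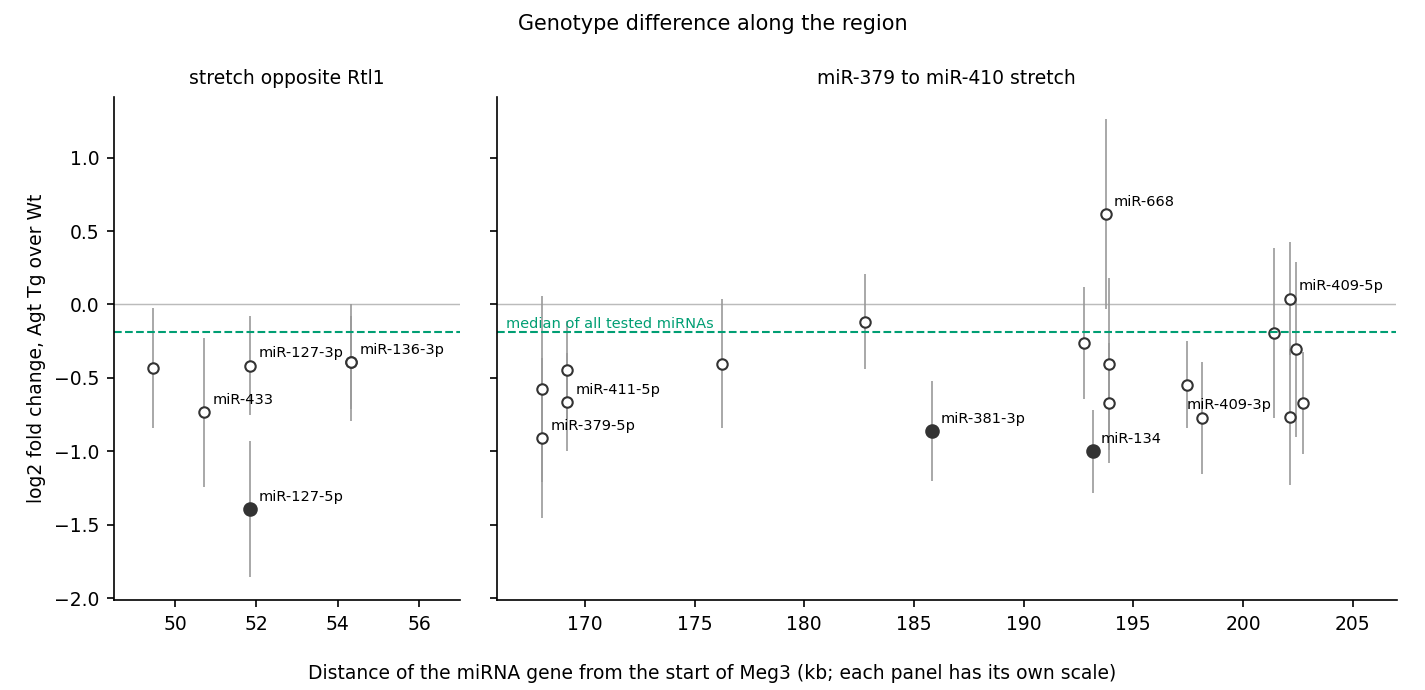
Log2 fold change (Agt Tg over Wt) of 25 miRNAs against the distance of their gene from the start of Meg3 in kb, with bars of 1 SE from limma; filled points had an unadjusted p of at most 0.05. All 6 miRNAs opposite Rtl1 and 17 of 19 in the second stretch lie below 0, and the dashed line is the median of all tested rows, −0.19. For 1 of the 17, miR-496, the filter fixed the direction.

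Most of the 25 rows were high and low in the same libraries. For each row the deviation from its own mean over the 6 libraries was taken. The median deviation was 0.58, −0.07 and 0.36 in Wt 1, 2 and 3, and 0.30, −0.57 and −0.55 in Agt Tg 1, 2 and 3. Over the other 304 tested rows it lay between −0.16 and 0.07. In Agt Tg 1, 22 of the 25 rows were above their own mean, as in Wt 1, whereas in Agt Tg 2 and in Agt Tg 3, 23 were below it. Agt Tg 2 was among the lowest pair of libraries in 21 rows and Agt Tg 3 in 19. Libraries tied at the floor were all counted in that pair, as in miR-496, which was at the floor in all 3 Agt Tg libraries. Wt 1 was the highest library in 13 rows. The pattern was the same in both stretches: the 6 rows opposite Rtl1 had medians of −0.65 and −0.70 in Agt Tg 2 and 3, and the 19 of the second stretch had −0.42 and −0.54. With TMM scaling the medians over the 25 were −0.44 and −0.46 in Agt Tg 2 and 3, and 0.26 in Agt Tg 1. With Wt 2 left out, the deposited values gave medians of 0.55 and 0.33 in Wt 1 and 3, and 0.30, −0.55 and −0.55 in Agt Tg 1, 2 and 3, with 23 of the 25 again below their own mean in Agt Tg 2 and in Agt Tg 3, and 21 above it in Agt Tg 1.

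**Figure D3:**
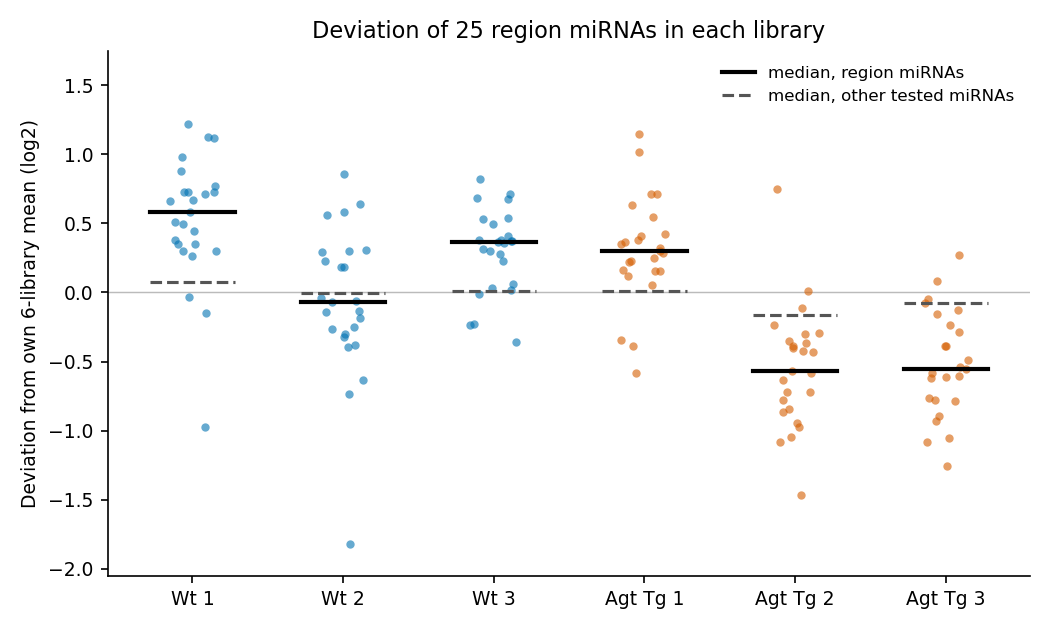
Deviation of each of 25 region miRNAs from its own mean over 6 libraries (y axis, log2) in each library (x axis); solid bars are medians of these miRNAs and dashed bars medians of the other 304 tested rows. The medians are 0.30 in Agt Tg 1 and −0.57 and −0.55 in Agt Tg 2 and 3, so the Agt Tg libraries differ from each other more than the group means do.

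Over all 300 pairs of the 25 rows the median Pearson correlation across the 6 libraries was 0.62, with 91.3% of pairs positive. Over pairs of the other tested rows the median was 0.03, with 51.5% positive. Over the 5 libraries without Wt 2 the medians were 0.69 and 0.06. With the mean of each genotype taken out, the median was 0.57 among the 25 and 0.00 among the others. The libraries share their depth scaling, and with TMM scaling the median among the 25 was 0.48. Rows from 1 precursor and rows from 1 primary transcript are not independent, and these correlations are a description. Against the median deviation of the other 24 rows, the best correlated were miR-409-3p (0.98), miR-433 (0.97) and miR-127-3p (0.96), which come from both stretches. The least correlated were miR-541-3p (0.02), miR-136-5p (0.11) and miR-668 (0.11), and miR-134 was at 0.60.

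Of the libraries in which the rows were low, Agt Tg 2 was the shallowest of the 6 and Agt Tg 3 the deepest. Some marker lists were also low in Agt Tg 2 and 3 and not in Agt Tg 1. The 4 haematopoietic markers, miR-142-3p, miR-142-5p, miR-150-5p and miR-223-3p, had median deviations of 0.21, −0.58 and −0.56 in Agt Tg 1, 2 and 3, and 0.38, 0.21 and 0.22 in Wt. All 4 were above the floor, all 4 had a lower mean in Agt Tg, and their summed level was 15.3 to 15.4 in Wt and 14.8 to 15.2 in Agt Tg libraries. The 3 fibroblast and stromal markers (miR-199a-3p, miR-199a-5p and miR-214-3p) had 0.28, −0.62 and −0.48 in Agt Tg 1, 2 and 3, and 0.13, 0.50 and 0.12 in Wt. All 3 were lower, 1 of them at an unadjusted p of at most 0.05, with sums of 14.3 to 15.4 in Wt and 13.8 to 14.8 in Agt Tg. The 2 endothelial markers (−0.13, 0.04 and 0.43) and the 5 tested adipocyte markers (−0.24, −0.01 and 0.18) were not low in Agt Tg 2 and 3. The 3 erythroid markers had 0.33, −0.16 and −0.16 in Agt Tg 1, 2 and 3, and 0.25, −0.93 and 0.24 in Wt. All 3 had a higher mean in Agt Tg. The part of the cell makeup of the samples in the result was not tested.

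A precursor gives a 5p and a 3p strand, usually in very unequal amounts, and their ratio within a library does not depend on its scaling. For 4 precursors both strands were above the floor in all 6 libraries. miR-127 was not among them, since miR-127-5p was at the floor in Agt Tg 2. The log2 fold changes of its strands were −1.39 (5p) and −0.42 (3p), and their balance was not tested. miR-411 was dominated by its 5p strand, 66.1-fold to 119-fold over 3p. miR-485 also had more 5p (1.32-fold to 3.31-fold), while miR-136 (1.52-fold to 2.80-fold) and miR-409 (2.85-fold to 7.33-fold) had more 3p. The ordering of the strands was the same in every library for all 4. miR-411-3p was at 5.46, 5.05 and 5.49 in Wt and 5.34, 4.82 and 4.51 in Agt Tg libraries. miR-485-5p was at 7.06, 5.94 and 6.61 in Wt and 7.35, 5.29 and 5.75 in Agt Tg libraries, and miR-485-3p at 5.78, 5.21 and 6.22 and at 5.62, 4.55 and 5.01. In these 3 rows Agt Tg 2 and 3 were again the lowest libraries.

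Among these 4 precursors, the balance of miR-409 differed most between genotypes. The log2 ratio of 5p over 3p was −2.87, −2.22 and −2.59 in Wt 1, 2 and 3, and −1.81, −1.94 and −1.51 in Agt Tg 1, 2 and 3. All 3 Agt Tg libraries thus had relatively more of the 5p strand than any Wt library, by 0.81 on the log2 scale (means −2.56 ± 0.33 and −1.75 ± 0.22, SD, n = 3). The two-sided exact permutation test gave p = 0.1, the smallest that 3 against 3 allow, and 0.4 after Benjamini-Hochberg adjustment over the 4 precursors. miR-409-3p itself was at 9.70, 8.40 and 9.22 in Wt and 9.09, 8.14 and 7.79 in Agt Tg libraries, and had a log2 fold change of −0.77 (SE 0.46, adjusted p by limma = 0.553), while miR-409-5p was at 6.83, 6.18 and 6.63 in Wt and 7.28, 6.20 and 6.28 in Agt Tg libraries, a log2 fold change of 0.04 (SE 0.39, adjusted p by limma = 0.952). The 5p strand was thus highest in Agt Tg 1, and the 3p strand in Wt 1. Without Wt 2 or without Agt Tg 1 the fold change of miR-409-5p turned negative (−0.14 and −0.31). For the other precursors the difference in log2 ratio was 0.27 for miR-485 and −0.22 for miR-411 (exact permutation p = 0.5 for each) and 0.00 for miR-136 (exact permutation p = 1).

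**Figure D4:**
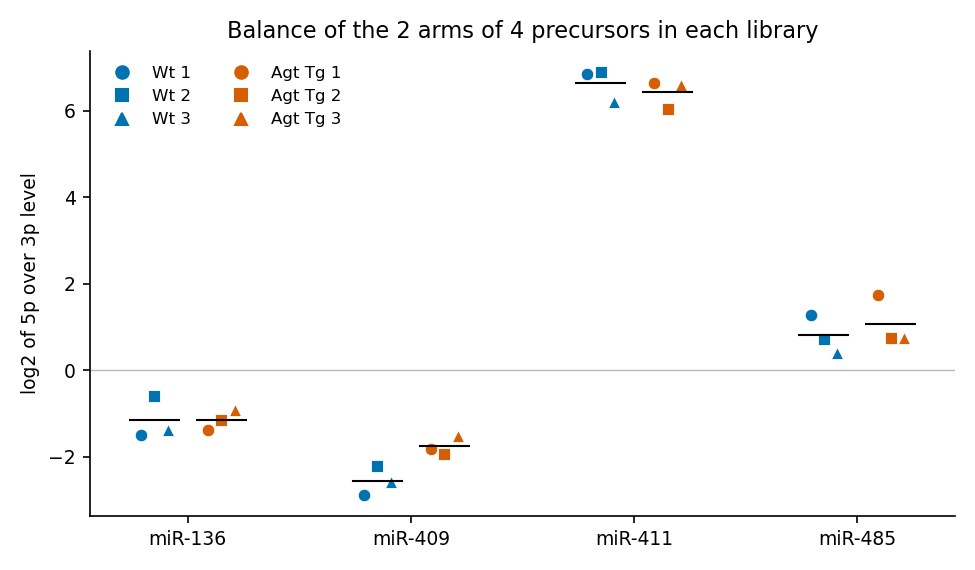
Log2 ratio of the 5p to the 3p level (y axis) for 4 precursors in each library (blue Wt, orange Agt Tg; circle, square and triangle are replicates 1, 2 and 3; bars are group means). The miR-409 ratios of Agt Tg libraries, −1.94 to −1.51, lie above those of Wt, −2.87 to −2.22, while the groups overlap in miR-136, miR-411 and miR-485.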

How the data were processed

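The small RNA libraries of the 6 mice (3 per genotype) were used, and array data were not. Per the methods, the authors checked reads with FastQC, mapped them to the mouse genome and to miRBase precursors, kept those on mature miRNAs and made the profiles with the Gunaratne pipeline. The sources used here do not name a miRBase release or a mismatch setting. The deposited table holds log2 values. On the linear scale each library moved in steps of 1 size, and 1924 of 1924 values over the floor came out as whole reads (tolerance 0.02 reads), which gave the totals. There were 0 columns without a sample.

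Rows over the floor in 3 or more libraries entered limma 3.58.1 (R 4.3.3) as deposited, with genotype alone in the model and a trend on the variance. The script was tested on simulated data. Exact permutation tests were two-sided (scipy 1.17.1). TMM was computed from the recovered reads, trimming 30% of log ratios and 5% of levels. Sequences and gene positions came from RefSeq (GRCm38.p6), and host genes from GENCODE M21, of the same assembly as the mm10 build in the labels. Values in every library were given for the 8 most abundant members, those at an unadjusted p of at most 0.05 or without overlap, both arms where both were measured throughout, and those nearest the floor. Others described were chosen after their values were seen. The members, the 2 stretches and the marker lists were chosen with earlier results of these data known. The muscle list had 1 tested member (log2 fold change −0.51), and the 3 erythroid markers had a median of 0.29. The epididymis and testis list (2 tested members) and the epithelial list (7 tested, miR-429 at the floor throughout) had medians of −1.90 and −2.39. Both lists were high in Wt 2 alone, with median deviations of 5.05 and 5.18, compared with −1.41 to −0.71 in the other libraries. Library deviations and correlations without Wt 2, and the share of all rows called under each alternative, were added after seeing the data.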

Additional observations from a re-analysis of the deposited data

How the results depend on the processing

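The median log2 fold change over the members kept its sign under all 14 alternatives, between −0.77 and −0.41 with a library left out (−0.72 to −0.40 opposite Rtl1, −0.92 to −0.41 in the second stretch), and the number of members lower in Agt Tg was 21 to 24 with a library left out. The read share ratio was 0.596 to 0.888. Members at the threshold of p and fold change numbered 1 on log2(value + 1), with limma-voom and with TMM scaling. The shares of all tested rows were 1.82%, 1.22% and 1.52%. Among rows above the floor in all libraries they also numbered 1, compared with 2.22% of all such rows. With a library left out they numbered 0 to 5 (1.22% to 7.6% of all tested rows), and 0 without Agt Tg 3. Those at an unadjusted p of at most 0.05 numbered 1 to 9 (1.82% to 11.9% of all tested rows), and 1 without Wt 1, Agt Tg 2 or Agt Tg 3. miR-496, its direction fixed by the filter, was among the lower members with each library left out. Without Wt 3 it was also among the members counted at both thresholds. Those without overlap numbered 2 of 18 among rows above the floor in all libraries, compared with 10.4% of all such rows. With a library left out they numbered 4 to 15 (13.1% to 27.1% of all tested rows). Fold changes of single members that turned direction were those of miR-409-5p (−0.14 without Wt 2, −0.31 without Agt Tg 1; range −0.31 to 0.23), miR-668 (−0.14 without Wt 2; up to 1.06) and miR-485-5p (0.015 without Agt Tg 2; down to −1.01). The causes were not tested.

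Replicate numbers did not pair the libraries: deviations from the group means correlated at 0.22, −0.18 and −0.21 for replicates 1, 2 and 3. With the replicate block, 4 members instead of 3 had an unadjusted p of at most 0.05, miR-379-5p being added, while the share of all tested rows lower at that p was 4.56% with and without the block, and 2 passed the threshold, as without it. Depth limits the rows near the floor, where 6.39 to 10.6 reads could not be told from 0.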
